A study of Mus musculus with 23 samples.

Results

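The extracellular matrix of the ileum was followed through 42 genes that encode collagens, the glycoproteins and proteoglycans bound to them, the enzymes that cross-link or cut them, and surface proteins of the cells that make them. They were chosen by name, with earlier results of these data known, and were matched to the gene names on the array. Each was represented by its probe with the highest mean signal in the deposited table. All 42 were found, among 23912 gene names with a probe in that table. They had 80 probes on the array and 73 in the table, and 19 genes had more than 1. 40 of the 42 chosen probes were well above background on all 23 arrays, the probe of Fmod on 22 and that of Cthrc1 on 19.

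The arrays came from 23 male mice, 1 array per mouse. Wild-type (WT) C57BL/6J mice were bought at 6 weeks of age, whereas mice that lack the pregnane X receptor (Pxr-/-), backcrossed on the same background, came from a colony kept in house for 10 years, so genotype and breeding origin cannot be told apart. After 2 weeks of acclimatization, mice received pregnenolone 16α-carbonitrile (PCN, a steroid ligand of this receptor, 100 mg/kg) in corn oil by intraperitoneal injection, once a day for 4 days, or the oil alone (CONT), and ileum was taken at ZT6 (6 h after lights on), 6 h from the final dose, from mice labelled as fed, with free access to their diet. WT PCN had 5 arrays, and WT CONT, Pxr-/- CONT and Pxr-/- PCN had 6 each, spread over 2 wash batches.

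Fibrillar collagens (types I, III and V) form the tension-bearing fibres of the submucosa and the core of the villus, and are secreted mainly by fibroblasts. Basement membrane collagens (types IV and XVIII) form the sheet beneath the epithelium and around vessels and muscle cells. Matrix metalloproteinases cut these proteins, tissue inhibitors of metalloproteinases (TIMPs) block the proteases, and lysyl oxidases cross-link collagen and elastin. PXR itself is known as a regulator of genes for the metabolism of foreign compounds, and is expressed in the intestinal epithelium.

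Among the 10 genes called in the comparisons that follow, 4 had an entry in the RefSeq promoter table (GRCm38.p6), which held 24 of the 42 genes. Their 250 bases before the transcription start are shown to set side by side the sequences of genes whose signal rose together. They are written on the strand of the gene, and capitals mark any match to 6 motifs searched on both strands, namely the TATA box (TATAAA), the box named CCAAT after its letters, the GC box (GGGCGG), the AP-1 site (TGANTCA), the TEAD site (GGAATG) and a nuclear receptor half-site (AGTTCA). Matches of different motifs may overlap.
Fbln2, chr6:91212514-91212763, plus strand: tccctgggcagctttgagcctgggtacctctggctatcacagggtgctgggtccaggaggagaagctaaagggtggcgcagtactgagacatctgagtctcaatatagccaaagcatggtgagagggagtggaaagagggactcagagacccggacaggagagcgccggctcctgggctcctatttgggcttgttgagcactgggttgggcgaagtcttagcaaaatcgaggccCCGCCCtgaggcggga
Timp1, chrX:20869916-20870165, plus strand: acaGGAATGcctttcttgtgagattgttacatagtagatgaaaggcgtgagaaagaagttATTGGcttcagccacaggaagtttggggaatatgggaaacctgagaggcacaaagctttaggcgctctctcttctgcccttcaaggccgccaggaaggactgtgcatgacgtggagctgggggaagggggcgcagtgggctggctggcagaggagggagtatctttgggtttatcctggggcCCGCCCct
Col3a1, chr1:45311288-45311537, plus strand: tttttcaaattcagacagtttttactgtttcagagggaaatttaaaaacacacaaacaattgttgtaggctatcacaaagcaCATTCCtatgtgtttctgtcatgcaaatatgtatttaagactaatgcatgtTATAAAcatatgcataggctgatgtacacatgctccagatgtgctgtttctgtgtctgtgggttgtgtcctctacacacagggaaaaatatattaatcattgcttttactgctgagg
Sparc, chr11:55420081-55420330, minus strand: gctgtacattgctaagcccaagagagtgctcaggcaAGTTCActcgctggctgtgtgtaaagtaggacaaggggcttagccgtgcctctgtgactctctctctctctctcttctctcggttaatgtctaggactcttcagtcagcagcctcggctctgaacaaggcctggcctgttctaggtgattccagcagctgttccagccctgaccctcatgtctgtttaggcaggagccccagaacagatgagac
Fbln2 had a GC box, Timp1 a CCAAT box, a GC box and a TEAD match, Col3a1 a TATA box and a TEAD match, and Sparc a nuclear receptor half-site. No motif was in all 4 windows. Over the 24 genes with a window, the GC box was in 14 (58.3%, against 35.4% of 27025 genes in the promoter table), the TATA box in 6 (25%, against 14.3%), the CCAAT box in 8 (33.3%, against 37.5%), the TEAD match in 5 (20.8%, against 14.4%), the half-site in 4 (16.7%, against 13.4%) and the AP-1 match in 2 (8.33%, against 7.82%). A match describes letters in the window and not a bound site. Col4a1 and Col4a2, the 2 main chains of type IV collagen, start 21 bases apart on opposite strands of chromosome 8 (11312826 and 11312805).

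Comparisons were made on the log2 scale with limma over all 37161 probes of the table, with Benjamini-Hochberg adjusted p. A gene was called when the adjusted p was at most 0.05 and the fold change above 1.5. In WT mice, PCN raised 5 of the 42 genes (Fbln2, Mgp, Thbs1, Lum and Timp1) and lowered 0, where 0.6% of all probes were called higher. In Pxr-/- mice it raised 10 (those 5 and Col1a1, Col3a1, Fn1, Sparc and Lox) and lowered 0, where 0.724% of all probes were called higher. Averaged over the genotypes 7 were raised (Col1a1, Fbln2, Mgp, Thbs1, Lum, Lox and Timp1), against 0.743% of all probes. The median difference of the 42 genes was 0.18 in WT and 0.39 in Pxr-/- mice, while the median of all probes was -0.01 in each. 35 of 42 genes (83.3%) were higher with PCN in both genotypes, a share of 29.5% among all probes. The genes were chosen with earlier results of these data known, and they varied together across arrays. Shares of all probes, here and below, are therefore given as a description and not as a test of an excess. In whole tissue, more cells of a type and more RNA per cell cannot be told apart.

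The WT count depended on single arrays. It was 0 without WT PCN replicate 2, 1 without WT CONT replicate 5, 2 without WT CONT replicate 6, WT PCN replicate 4 or WT PCN replicate 5, and 3 without WT CONT replicate 3 or 4. Leaving out single arrays in the Pxr-/- comparison gave 7 to 11 genes. In each wash batch the 15 called differences, taken separately, were all above 0 (30 values, 0.50 to 1.84). These differences had been called on the same arrays over both batches, so their sign within a batch is not an independent check. Within batch 1, 38 of the 42 genes were higher with PCN in WT and 39 in Pxr-/- mice, and within batch 2, 35 and 39.

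**Figure D1:**
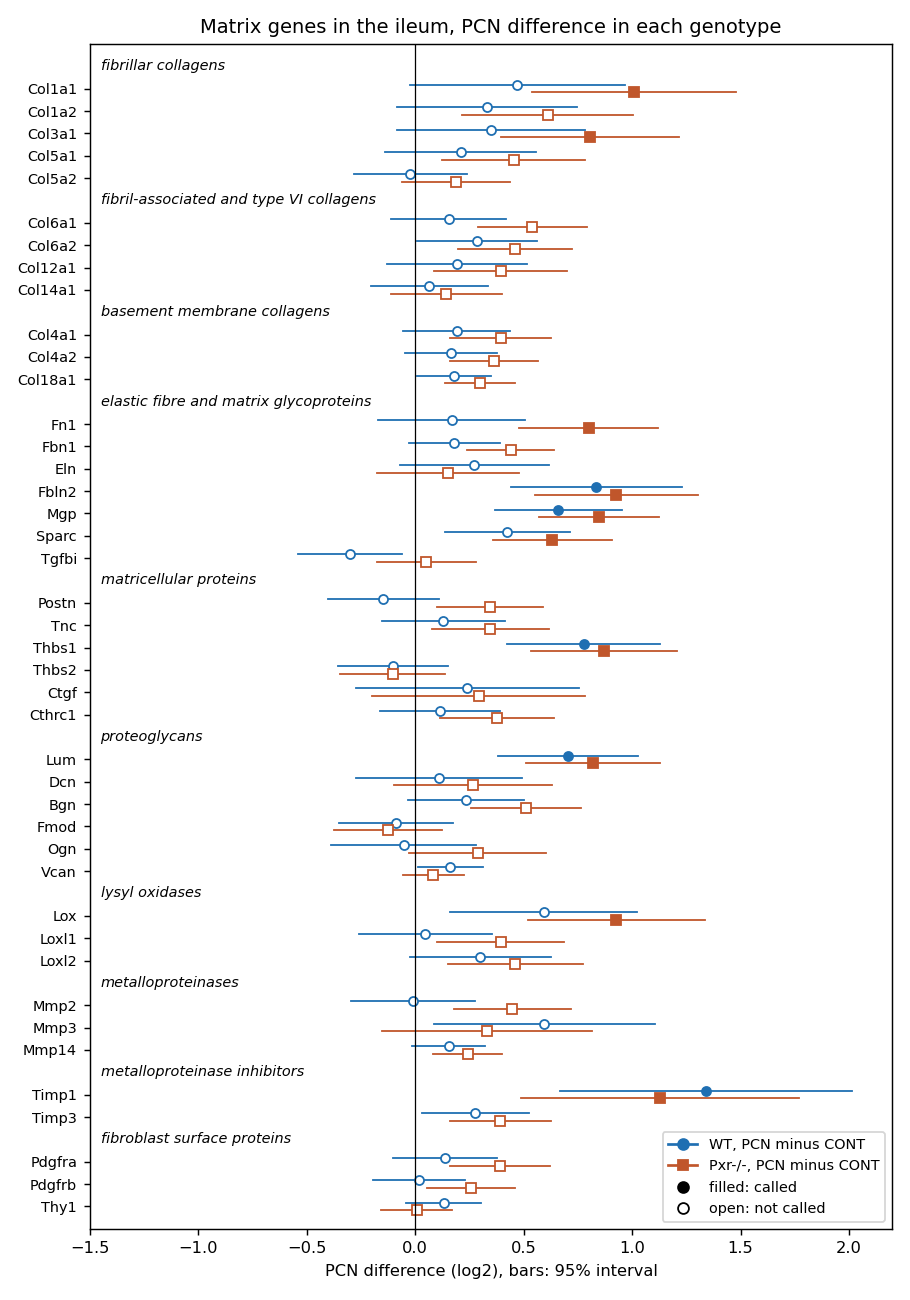
PCN difference of each of the 42 matrix genes on the log2 scale (x axis), by class, in WT (circles) and Pxr-/- mice (squares), with 95% intervals from the limma fit and filled symbols for called genes. 5 symbols are filled in WT and 10 in Pxr-/- mice, all to the right of 0.

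Genes of the elastic fibre and matrix glycoprotein class gave the most calls, 2 of 7 in WT (Fbln2 and Mgp) and 4 of 7 in Pxr-/- mice (with Fn1 and Sparc), with class medians of 0.27 and 0.63. Fbln2 encodes fibulin-2, a glycoprotein that binds fibronectin and elastic fibres (probe at chromosome 6, 91222118 to 91222177, mm9). Its log2 value ran from 9.20 to 9.50 (median 9.44) in WT CONT and was 10.20, 10.20, 9.77, 10.75 and 10.18 in WT PCN replicates 1 to 5. In Pxr-/- CONT it ran from 8.89 to 9.80 (median 9.27), and in Pxr-/- PCN from 9.84 to 10.94 (median 10.00). The PCN and CONT arrays did not overlap in either genotype. The difference was 0.83 (SE 0.190, 1.78-fold, adjusted p = 0.0261, n = 6 and 5, limma) in WT and 0.93 (SE 0.181, 1.90-fold, adjusted p = 0.00725, n = 6 and 6) in Pxr-/- mice. The call in WT was lost when WT CONT replicate 3, 4, 5 or 6 or WT PCN replicate 2, 4 or 5 was left out (adjusted p up to 0.0864).

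Mgp encodes matrix Gla protein, an inhibitor of calcification (chromosome 6, 136821125 to 136821184, mm9). WT CONT arrays lay between 12.32 and 12.78 (median 12.44), and WT PCN arrays were at 13.19, 13.28, 12.68, 13.62 and 13.10. Pxr-/- CONT arrays lay between 12.17 and 12.87 (median 12.57) and Pxr-/- PCN arrays between 13.13 and 13.69 (median 13.38). In WT only replicate 3 of the PCN arrays fell into the CONT range, and in Pxr-/- mice the groups were separate. PCN raised it 1.58-fold in WT (log2 0.66, SE 0.140, adjusted p = 0.0158, limma) and 1.80-fold in Pxr-/- mice (0.85, SE 0.133, adjusted p = 0.00150). Averaged over the genotypes it had the smallest adjusted p among the 42 genes (0.75, SE 0.0968, adjusted p = 4.31e-05). Leaving out WT CONT replicate 5 or WT PCN replicate 2 or 4 ended the call in WT (adjusted p up to 0.0580).

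Fn1 encodes fibronectin, which links collagens to cell surface integrins (chromosome 1, 71632116 to 71632175, mm9). WT CONT values were 12.29 to 12.81 (median 12.65), and WT PCN values 12.68, 13.21, 12.42, 12.93 and 12.65. Pxr-/- CONT values were 12.32 to 12.57 (median 12.45) and Pxr-/- PCN values 12.60 to 13.85 (median 13.29). The WT groups overlapped, 2 of 5 PCN arrays lying above all CONT arrays, and the Pxr-/- groups did not. The difference was 0.17 (SE 0.163, adjusted p = 0.758, limma) in WT and 0.80 (SE 0.155, 1.74-fold, adjusted p = 0.00695) in Pxr-/- mice. The other 3 probes of Fn1 gave 0.13 to 0.45 in WT and 0.37 to 0.70 in Pxr-/- mice and were not called.

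Sparc encodes osteonectin, a collagen-binding protein that takes part in fibril assembly (chromosome 11, 55208939 to 55208998, mm9, the promoter shown above). Its value was 15.20 to 15.42 (median 15.34) in WT CONT and 15.78, 15.70, 15.28, 16.25 and 15.72 in WT PCN. It was 15.08 to 15.63 (median 15.33) in Pxr-/- CONT and 15.69 to 16.33 (median 15.91) in Pxr-/- PCN. All WT PCN arrays but replicate 3 lay above the CONT arrays, and all 6 Pxr-/- PCN arrays did. It rose in Pxr-/- mice (0.63, SE 0.132, 1.55-fold, adjusted p = 0.0109, limma), and its second probe was called too, while in WT it differed by 0.42 (SE 0.139, adjusted p = 0.166). Its rise dropped below 1.5-fold without Pxr-/- CONT replicate 4 or Pxr-/- PCN replicate 5 or 6 (log2 down to 0.56). Of the others in this class, Fbn1 (fibrillin-1, the scaffold of elastic fibres) differed by 0.44 in Pxr-/- mice. It passed the adjusted p there (0.0147, limma) and not the fold threshold. Eln (elastin) differed by 0.27 in WT and 0.15 in Pxr-/- mice, and Tgfbi by -0.30 and 0.05, none of these 4 values passing the test. The second, dimmer probe of Eln gave 0.15 in WT and 0.39 in Pxr-/- mice (adjusted p = 0.0513, limma). Averaged over the genotypes that probe passed the adjusted p (0.27, adjusted p = 0.0401, limma) without the fold threshold.

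In the fibrillar collagens, 0 of 5 genes were called in WT and 2 of 5 in Pxr-/- mice (Col1a1 and Col3a1), with class medians of 0.33 and 0.61. Col1a1 and Col1a2 encode the 2 chains of type I collagen. For Col1a1 (chromosome 11, 94813075 to 94813134, mm9), WT CONT arrays lay between 11.36 and 11.67 (median 11.39), and WT PCN arrays were at 12.13, 11.73, 11.15, 12.79 and 11.81. Pxr-/- CONT arrays lay between 11.08 and 12.01 (median 11.55) and Pxr-/- PCN arrays between 11.84 and 13.02 (median 12.55). WT PCN replicate 3 was below, and the other 4 above, all WT CONT arrays. 5 of 6 Pxr-/- PCN arrays were above all their CONT arrays. The difference was 1.01 (SE 0.227, 2.01-fold, adjusted p = 0.0171, limma) in Pxr-/- mice and 0.47 (SE 0.238, 1.39-fold, adjusted p = 0.456) in WT. Its other 2 probes in the table gave the same calls.

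Col1a2 had values of 13.30 to 13.77 (median 13.51) in WT CONT and of 13.90, 13.79, 13.35, 14.53 and 13.66 in WT PCN. In Pxr-/- mice it lay between 13.02 and 13.93 (median 13.73) without PCN and between 13.82 and 14.69 (median 14.09) with it. Both pairs of groups overlapped. It differed by 0.33 (SE 0.200, adjusted p = 0.550, limma) in WT and by 0.61 (SE 0.190, adjusted p = 0.0722) in Pxr-/- mice, where it did not pass the test. Of its other 2 probes in the table, both dimmer, 1 gave -0.04 in WT and 0.55 in Pxr-/- mice, where it passed the adjusted p (0.0189, limma) but not the fold threshold, and 1 gave 0.15 and 0.28 and passed neither.

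Col3a1, the single chain of type III collagen (chromosome 1, 45405589 to 45405648, mm9, the promoter with the TATA box above), lay between 12.69 and 13.10 (median 12.94) in WT CONT. The WT PCN arrays were at 13.41, 12.93, 12.64, 14.07 and 13.33. Without PCN the Pxr-/- arrays lay between 12.40 and 13.37 (median 12.97), and with PCN between 13.33 and 14.06 (median 13.65). WT PCN ranged on both sides of WT CONT, and 5 of 6 Pxr-/- PCN arrays lay above all Pxr-/- CONT arrays. PCN raised Col3a1 in Pxr-/- mice (0.81, SE 0.198, 1.75-fold, adjusted p = 0.0259, limma), and in WT the difference was 0.35 (SE 0.208, adjusted p = 0.544). The call rested on single arrays, as it was lost without Pxr-/- CONT replicate 3 or 4 or Pxr-/- PCN replicate 1 or 5 (adjusted p up to 0.0746). The 2 other probes of Col3a1, both dimmer and annotated to other transcripts, gave 0.04 and 0.09 in WT and 0.39 and 0.44 in Pxr-/- mice without a call. The type V chains differed less, Col5a1 by 0.21 and 0.45 in WT and Pxr-/- mice and Col5a2 by -0.02 and 0.19, without passing the test.

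**Figure D2:**
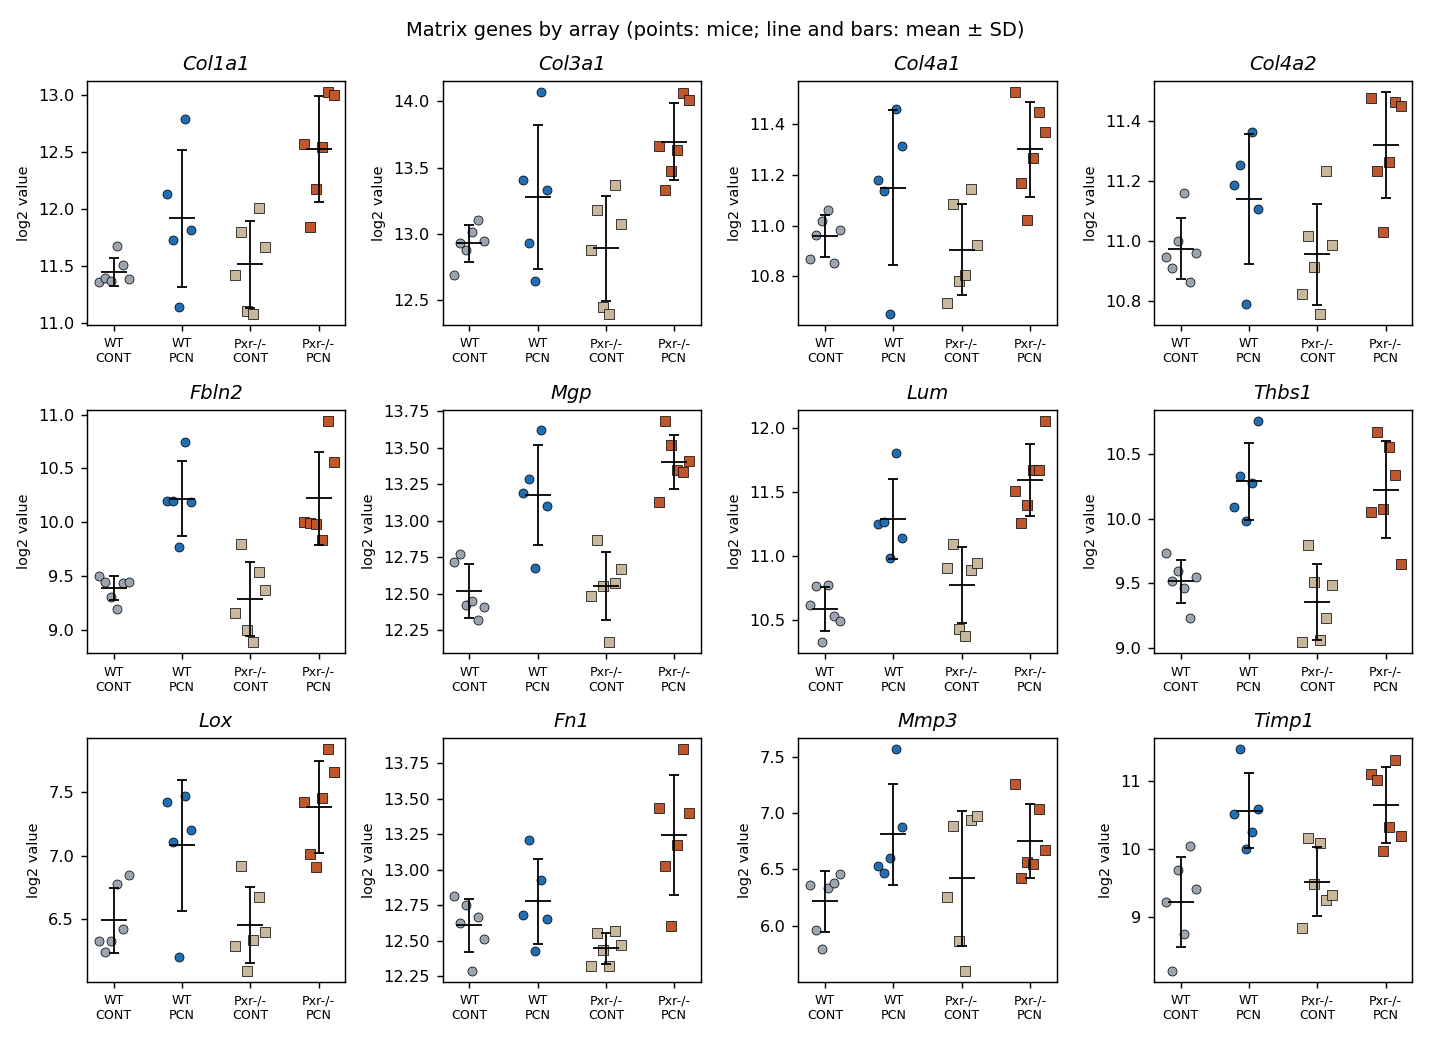
Log2 values (y axes) of 12 matrix genes on each array (points) in the 4 groups (x axes), with the group mean and SD. Fbln2 and Lum show separate PCN and CONT groups in both genotypes, whereas Col1a1, Col3a1 and Col4a1 have WT PCN replicate 3 at or under the lowest WT CONT array.

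The basement membrane collagens had smaller differences that were close to each other, with 0 of 3 genes called in either genotype and medians of 0.18 in WT and 0.36 in Pxr-/- mice. Col4a1 was at 10.85 to 11.06 (median 10.97) in WT CONT and at 11.18, 11.14, 10.65, 11.46 and 11.31 in WT PCN. It was at 10.70 to 11.14 (median 10.86) in Pxr-/- CONT and at 11.02 to 11.52 (median 11.32) in Pxr-/- PCN. 4 of 5 WT PCN arrays and 5 of 6 Pxr-/- PCN arrays lay above all their CONT arrays. The difference was 0.19 (SE 0.118, adjusted p = 0.568, limma) in WT and 0.39 (SE 0.113, adjusted p = 0.0522) in Pxr-/- mice.

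Its neighbour Col4a2 was at 10.86 to 11.16 (median 10.96) in WT CONT and at 11.19, 11.25, 10.79, 11.36 and 11.11 in WT PCN. Pxr-/- CONT arrays were at 10.76 to 11.23 (median 10.95) and Pxr-/- PCN arrays at 11.03 to 11.47 (median 11.36). WT PCN replicate 3 was again the lowest of its group and replicate 4 the highest, for both genes. Col4a2 differed by 0.17 (SE 0.103, adjusted p = 0.573, limma) in WT and by 0.36 (SE 0.0982, adjusted p = 0.0420) in Pxr-/- mice, passing the adjusted p there but not the fold threshold.

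Col18a1, whose C-terminal fragment is endostatin, was at 11.06 to 11.40 (median 11.23) in WT CONT and at 11.39, 11.34, 11.25, 11.55 and 11.39 in WT PCN. In Pxr-/- mice it was at 10.96 to 11.30 (median 11.19) without PCN and at 11.22 to 11.60 (median 11.49) with it. The groups overlapped in both genotypes. The difference of 0.30 in Pxr-/- mice (SE 0.0782, adjusted p = 0.0358, limma) passed the adjusted p alone, and that of 0.18 in WT (SE 0.0822, adjusted p = 0.389) did not.

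Fibrillar and basement membrane collagens were set against each other by the gap between their class medians, which was 0.15 in WT, 0.25 in Pxr-/- mice and 0.21 on average. On single arrays, the median log2 level of the fibrillar collagens minus that of the basement membrane collagens had an SD of 0.295 between arrays of a group. That is a spread of levels and not of the gap in PCN differences, and the difference between the classes was not tested. Within wash batch 1 the gap in PCN differences was 0.37 in WT, 0.32 in Pxr-/- mice and 0.32 on average, and within batch 2 it was 0.0031, 0.23 and 0.13. With 1 array removed at a time, the WT gap ran from 0.02, when WT PCN replicate 4 was removed, to 0.21, when replicate 3 was, and the gap was 0.17 to 0.31 in Pxr-/- mice and 0.14 to 0.24 on average. It was -0.02 in WT, 0.11 in Pxr-/- mice and 0.07 on average when all probes of a gene were averaged, in place of the brightest, and 0.03 in WT without WT PCN replicates 3 and 4. The remaining collagens had class medians of 0.17 and 0.43. Among them Col6a1 and Col6a2, type VI chains that form beaded microfibrils, passed the adjusted p in Pxr-/- mice (0.54, adjusted p = 0.0169, and 0.46, adjusted p = 0.0454) but not the fold threshold. The 6 Pxr-/- PCN arrays of Col6a1 (13.52 to 14.07) were all above its CONT arrays (12.66 to 13.48). Col12a1 and Col14a1, which decorate fibrils, differed by 0.19 and 0.06 in WT and by 0.39 and 0.14 in Pxr-/- mice and passed no test.

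**Figure D3:**
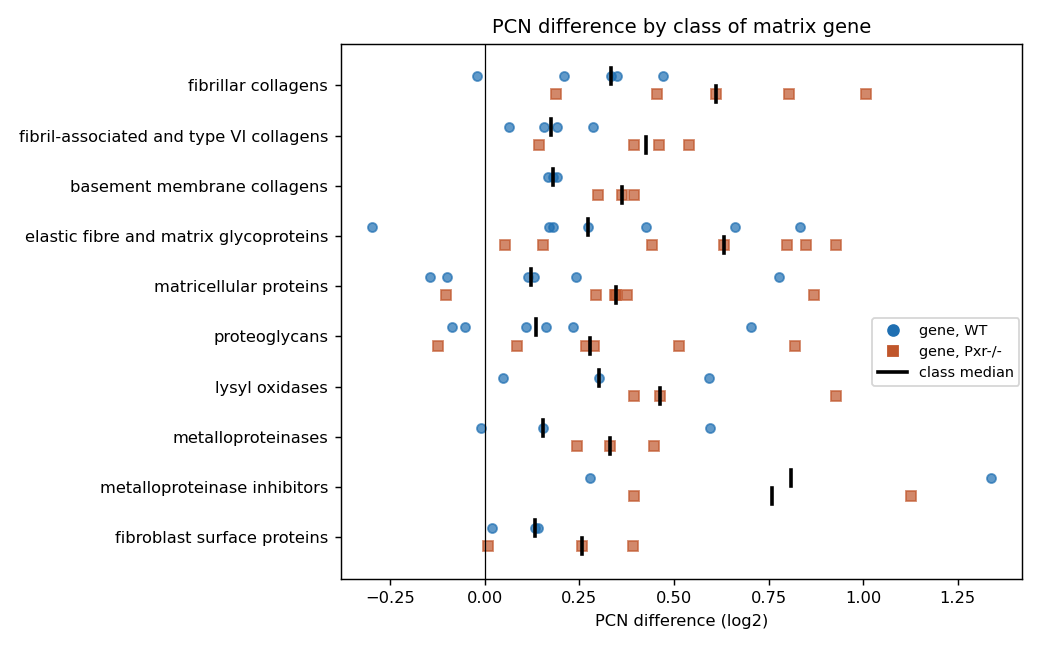
PCN difference (x axis, log2) of each matrix gene by class (y axis) in WT (circles) and Pxr-/- mice (squares), with the class median as a black bar. The fibrillar collagens have medians of 0.33 and 0.61, the basement membrane collagens 0.18 and 0.36, and the inhibitor class holds the largest single difference, Timp1.

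Among the matricellular proteins, which signal to cells more than they build fibres, 1 of 6 was called in each genotype, Thbs1, and the medians were 0.12 in WT and 0.35 in Pxr-/- mice. Thbs1 encodes thrombospondin-1, a glycoprotein that can activate latent TGF-β (chromosome 2, 117952585 to 117952644, mm9). It was at 9.23 to 9.73 (median 9.53) in WT CONT and at 10.09, 10.33, 9.98, 10.28 and 10.76 in WT PCN. It was at 9.04 to 9.79 (median 9.36) in Pxr-/- CONT and at 9.65 to 10.67 (median 10.21) in Pxr-/- PCN. The WT groups were separate, and 5 of 6 Pxr-/- PCN arrays were above all CONT arrays. PCN raised it by 0.78 (SE 0.170, 1.71-fold, adjusted p = 0.0192, limma) in WT and 0.87 (SE 0.162, 1.83-fold, adjusted p = 0.00536) in Pxr-/- mice. The WT call did not hold without WT CONT replicate 5 or WT PCN replicate 2 or 5 (adjusted p up to 0.0678). Its second probe gave 0.81 and 0.68, not called in either genotype (adjusted p = 0.0939 and 0.0808 by limma). Averaged over the genotypes that probe was called (0.75, adjusted p = 0.00510, limma). Thbs2, its paralogue, was at -0.10 in both. The others passed no test, with Postn (periostin) at -0.15 in WT and 0.34 in Pxr-/- mice, Tnc (tenascin-C) at 0.13 and 0.35, Ctgf at 0.24 and 0.29, and Cthrc1 at 0.11 and 0.38.

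Lum was the called gene among 6 proteoglycans, whose medians were 0.14 and 0.28. It encodes lumican, a small leucine-rich proteoglycan that sets the diameter of collagen fibrils (chromosome 10, 97035210 to 97035269, mm9). WT CONT arrays lay between 10.33 and 10.78 (median 10.58), and WT PCN arrays at 11.25, 11.26, 10.98, 11.81 and 11.14. Pxr-/- CONT arrays lay between 10.38 and 11.09 (median 10.90) and Pxr-/- PCN arrays between 11.26 and 12.06 (median 11.59). The groups did not overlap in either genotype. The rise was 1.63-fold in WT (log2 0.70, SE 0.156, adjusted p = 0.0214, limma) and 1.76-fold in Pxr-/- mice (0.82, SE 0.148, adjusted p = 0.00459). The WT call ended without WT CONT replicate 3, 5 or 6 or WT PCN replicate 2 or 4 (adjusted p up to 0.0733). Dcn, which encodes decorin and whose probe lies 54.9 kb from that of Lum, differed by 0.11 and 0.27 and passed no test. Bgn (biglycan) passed the adjusted p in Pxr-/- mice (0.51, adjusted p = 0.0225) without the fold threshold, and Ogn, Vcan and Fmod passed neither. The other 2 probes of Vcan (versican), both dimmer, gave 0.25 and 0.42 in WT and 0.57 and 0.51 in Pxr-/- mice, against 0.16 and 0.08 for the brightest. 1 of them passed the adjusted p in Pxr-/- mice (0.0346, limma) and both did on average (0.0200 and 0.0114), without the fold threshold.

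Of the 3 lysyl oxidases, 0 were called in WT and 1, Lox, in Pxr-/- mice. Lox was at 6.24 to 6.85 (median 6.38) in WT CONT and at 7.42, 7.11, 6.21, 7.47 and 7.20 in WT PCN (chromosome 18, 52675748 to 52675807, mm9). In Pxr-/- mice it was at 6.10 to 6.92 (median 6.37) without PCN and at 6.91 to 7.84 (median 7.44) with it. Every WT PCN array but replicate 3 was above all WT CONT arrays, and 5 of 6 Pxr-/- PCN arrays were above theirs. The difference was 0.93 (SE 0.197, 1.90-fold, adjusted p = 0.0121, limma) in Pxr-/- mice and 0.59 (SE 0.207, 1.51-fold, adjusted p = 0.205) in WT. Its dimmer probe, above background on 12 of 23 arrays, gave 0.49 in Pxr-/- mice without a call. Loxl1 and Loxl2 differed by 0.05 and 0.30 in WT and by 0.39 and 0.46 in Pxr-/- mice, not passing the test.

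The proteases gave no call, 0 of 3 in either genotype, with medians of 0.15 and 0.33. Mmp2, gelatinase A, was at 8.84 to 9.15 (median 9.01) in WT CONT and at 9.08, 8.78, 8.67, 9.50 and 9.02 in WT PCN. It was at 8.53 to 9.09 (median 8.61) in Pxr-/- CONT and at 8.92 to 9.50 (median 9.16) in Pxr-/- PCN. Of the 5 WT PCN arrays 2 lay below all WT CONT arrays and 1 above them, and 5 of 6 Pxr-/- PCN arrays were above all their CONT arrays. Its difference was -0.01 (SE 0.137, adjusted p = 0.990, limma) in WT and 0.45 (SE 0.130, adjusted p = 0.0555) in Pxr-/- mice.

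Mmp3, stromelysin-1, was at 5.80 to 6.46 (median 6.35) in WT CONT and at 6.53, 6.47, 6.61, 7.57 and 6.88 in WT PCN. It was at 5.60 to 6.98 (median 6.57) in Pxr-/- CONT and at 6.42 to 7.26 (median 6.62) in Pxr-/- PCN. The WT groups were separate by a narrow margin, and the Pxr-/- groups overlapped. The difference was 0.59 (SE 0.245, adjusted p = 0.313, limma) in WT and 0.33 (SE 0.233, adjusted p = 0.458) in Pxr-/- mice.

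Mmp14, a membrane-bound protease that activates pro-MMP2, was at 7.73 to 8.01 (median 7.88) in WT CONT and at 8.03, 8.10, 7.74, 8.19 and 8.08 in WT PCN. Pxr-/- CONT arrays were at 7.71 to 7.94 (median 7.87) and Pxr-/- PCN arrays at 7.96 to 8.20 (median 8.09). The Pxr-/- groups did not overlap, and 4 of 5 WT PCN arrays were above all WT CONT arrays. The difference was small in both, 0.15 (SE 0.0804, adjusted p = 0.475, limma) and 0.24 (SE 0.0765, adjusted p = 0.0753).

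The inhibitor Timp1 had the largest difference of the 42 genes in each genotype over both wash batches and within batch 2, but not within batch 1, and its control arrays were spread widely (SD 0.66 in WT CONT and 0.51 in Pxr-/- CONT). Its probe lies on chromosome X, 20451675 to 20451733 (mm9). WT CONT arrays lay between 8.22 and 10.05 (median 9.32), and WT PCN arrays at 10.52, 11.46, 10.01, 10.25 and 10.59. Pxr-/- CONT arrays lay between 8.84 and 10.16 (median 9.40) and Pxr-/- PCN arrays between 9.97 and 11.31 (median 10.67). 4 of 5 WT PCN and 5 of 6 Pxr-/- PCN arrays were above all their CONT arrays. PCN raised Timp1 2.53-fold in WT (log2 1.34, SE 0.325, adjusted p = 0.0388, limma) and 2.18-fold in Pxr-/- mice (1.13, SE 0.309, adjusted p = 0.0438). Averaged over the genotypes the difference was 1.23 (SE 0.224, adjusted p = 0.00150). Within wash batch 1 Timp1 differed by 0.68 in each genotype, less than Lum, Mmp3 and Fbln2 in WT (0.91, 0.88 and 0.84) and less than 7 genes in Pxr-/- mice, led by Mgp (0.94) and Thbs1 (0.93). Within batch 2 it differed by 1.84 in WT and 1.58 in Pxr-/- mice. The call in WT was lost without any of 7 of 11 single arrays (WT CONT replicate 1, 2, 4 or 6, WT PCN replicate 1, 2 or 5, adjusted p up to 0.141), and that in Pxr-/- mice without any of 7 of 12 (Pxr-/- CONT replicate 1, 3, 5 or 6, Pxr-/- PCN replicate 1, 2 or 5, adjusted p up to 0.118).

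Timp3, the inhibitor that stays bound to the matrix, was at 11.26 to 11.65 (median 11.44) in WT CONT and at 11.41, 11.66, 11.73, 12.05 and 11.84 in WT PCN. It was at 10.83 to 11.44 (median 11.38) in Pxr-/- CONT and at 11.51 to 11.94 (median 11.65) in Pxr-/- PCN. The Pxr-/- groups were separate, and replicate 4 of Pxr-/- CONT stood well below the others. The difference was 0.28 (SE 0.119, adjusted p = 0.342, limma) in WT and 0.39 (SE 0.113, adjusted p = 0.0529) in Pxr-/- mice. The fibroblast surface proteins Pdgfra, Pdgfrb and Thy1 gave 0 calls, with Pdgfra at 0.14 in WT and 0.39 in Pxr-/- mice (adjusted p = 0.0490, limma). The other probes of Pdgfra, all dimmer, gave 0.01 and -0.13 in WT and 0.07 each in Pxr-/- mice, without passing the adjusted p.

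By separation of the arrays, 4 of the 42 genes (Fbln2, Thbs1, Lum and Mmp3) had all WT PCN arrays above all WT CONT arrays, against 1.43% of all probes. In Pxr-/- mice 11 did (Col6a1, Fn1, Fbn1, Fbln2, Mgp, Sparc, Lum, Bgn, Mmp14, Timp3 and Pdgfra), against 1.44% of all probes. By adjusted p alone, with no fold threshold, 17 genes were higher in Pxr-/- mice (background 2.10%) and 22 on average (background 4.43%).

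Whether PCN acted differently by genotype was tested by the interaction term. It called 0 of 42 genes at either threshold (background 0.078% of all probes called either way), with a smallest adjusted p of 0.847 and 5 genes at an unadjusted p under 0.05. 35 of 42 genes had the larger PCN difference in Pxr-/- mice, a share of 50.1% among all probes. The genes are not separate observations, as they varied together across arrays. WT PCN replicate 3 was the lowest of its group in 32 genes and Pxr-/- CONT replicate 4 in 25. The count is therefore not evidence of a difference between genotypes. The effect in WT minus that in Pxr-/- mice was -0.63 for Fn1 (95% interval -1.10 to -0.17), -0.54 for Col1a1 (-1.22 to 0.15), -0.20 for Col4a1 (-0.54 to 0.14), -0.09 for Fbln2 (-0.64 to 0.45) and 0.21 for Timp1 (-0.72 to 1.14). Besides Fn1, the genes at an unadjusted p under 0.05 (limma) were Postn (-0.49, -0.84 to -0.14), Mmp2 (-0.46, -0.85 to -0.07), Col6a1 (-0.39, -0.75 to -0.02) and Tgfbi (-0.35, -0.68 to -0.02). These intervals are not adjusted for the number of genes. The other 3 probes of Fn1 gave -0.20 to -0.33 in place of -0.63, and the other probes of Postn gave -0.35 to -0.55. All the intervals given but that of Col4a1 include effects that are unequal by more than 1.5-fold. The 5 genes called in Pxr-/- but not in WT mice are therefore not shown to differ between genotypes. The genotypes themselves differed in 0 of 42 genes without PCN (background 0.148%, smallest adjusted p 0.291, 4 genes at an unadjusted p under 0.05) and in 0 with PCN (background 0.366%, smallest adjusted p 0.0986, 7 genes at an unadjusted p under 0.05).

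The removed gene could not be checked. Its single probe (gene symbol Nr1i2, chromosome 16, 38248745 to 38248804, mm9) was well above background on all 23 arrays and lower by 0.41 in Pxr-/- CONT than in WT CONT (SE 0.146, adjusted p = 0.334, limma), and whether it lies in the deleted part is not given in the sources used here. The 6 ileum markers and 9 of the 10 epithelium markers were above background on all 23 arrays, and Lct on 22. The median spot signal was 74 to 106.5, and 62.7% to 68.8% of spots were well above background.

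WT PCN arrays varied together across the matrix genes. Replicate 4 was the highest of its group in 33 of the 42 genes and replicate 3 the lowest in 32. The mean level of the 42 genes, relative to the WT CONT mean, was -0.09 in replicate 3 and 0.57 in replicate 4. Within Pxr-/- CONT, replicate 4 was lowest in 25 genes. Without WT PCN replicates 3 and 4, an alternative added after the values were seen, 3 genes were called in WT (Mgp, Thbs1 and Timp1) and 7 on average.

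Cell types were followed through marker lists on the same arrays. Fibroblast markers outside the 42 genes, 16 in all and 15 of them above background on every array, had medians of 0.12 in WT and 0.37 in Pxr-/- mice, with 2 called higher in WT and 6 in Pxr-/- mice. Of the 16, 5 were lower with PCN in WT and 3 in Pxr-/- mice, without a call. Grem1 (gremlin-1, a BMP antagonist) rose by 0.89 in WT and 0.64 in Pxr-/- mice, Pdpn (podoplanin) rose by 0.69 and 0.64, and Pi16 rose by 0.91 in Pxr-/- mice and differed by 0.70 in WT without a call. The mean log2 level of the fibroblast list, relative to the WT CONT mean, was -0.20 in WT PCN replicate 3 and 0.59 in replicate 4. These were the lowest and the highest of the group, as for the matrix genes. Ranges were -0.13 to 0.03 in WT CONT, -0.28 to 0.18 in Pxr-/- CONT and 0.21 to 0.49 in Pxr-/- PCN. The part of fibroblasts in the matrix result was not tested. Replicates 3 and 4 were also the lowest and highest of WT PCN for smooth muscle (-0.14 and 0.30) and macrophage markers (-0.10 and 0.44). The same held for enteric glia and neuron markers (-0.22 and 0.28), but not for the other marker lists.

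Of 12 smooth muscle markers 0 were called in WT and 2 in Pxr-/- mice (Actg2, 0.67, and Cnn1, 0.66), with medians of 0.09 and 0.25. With PCN, 5 of the 12 were lower in WT (down to -0.46) and 2 in Pxr-/- mice (down to -0.36). On average 1 was lower at the adjusted p, without the fold threshold. The mean level of the list ranged from -0.15 to 0.12 in WT CONT, -0.14 to 0.30 in WT PCN, -0.22 to 0.32 in Pxr-/- CONT and -0.04 to 0.75 in Pxr-/- PCN. Of 10 macrophage markers 1 was called in Pxr-/- mice (Cd68, 0.60), with medians of 0.16 and 0.32 and ranges of -0.11 to 0.12, -0.10 to 0.44, -0.34 to 0.25 and 0.04 to 0.43 in the 4 groups in the same order. Among these 10, 2 were lower with PCN in WT and 1 in Pxr-/- mice. Of 9 neutrophil markers 2 were called in WT and 3 in Pxr-/- mice, led by the alarmin subunits, S100a9 with 2.16 and 2.90 and S100a8 with 1.63 and 2.56. The medians of the list were 0.11 in WT and 0.10 in Pxr-/- mice, and 2 of the 9 were lower with PCN in WT and 3 of 9 in Pxr-/- mice. The list mean, which holds S100a8 and S100a9, ranged from -0.31 to 0.13 in WT CONT and 0.29 to 0.88 in WT PCN, and from -0.08 to 0.25 in Pxr-/- CONT and 0.32 to 1.30 in Pxr-/- PCN, without overlap in either genotype. Mpo was above background on 13 arrays and Elane on all 23. The part of muscle, macrophages and neutrophils in the matrix result was not tested.

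The 7 B cell markers had 0 calls but a median difference of 1.42 in WT. Their level was 2.83 in WT PCN replicate 3 and 2.71 in replicate 2, against 0.24 to 0.28 in the other 3 and -0.19 to 0.11 in WT CONT. Their median difference was 0.47 in Pxr-/- mice, with levels of -0.26 to 0.14 in Pxr-/- CONT and -0.17 to 1.30 in Pxr-/- PCN, highest in replicate 1. Of the WT PCN arrays with high B cell levels, replicate 3 was lowest of its group in 32 matrix genes, and replicate 2 was lowest in 3 and highest in 5. The part of B cells in the matrix result was not tested. Of 8 mesothelium markers Msln was called in both genotypes (0.99 and 0.74), with list medians of 0.02 and 0.19. Among the 8, 3 were lower with PCN in each genotype, and 1 was lower at the adjusted p on average, without the fold threshold. The endothelial list (10 genes, medians 0.21 and 0.20), the enteric glia and neuron list (9 genes, -0.16 and -0.03), the adipocyte list (7 genes, -0.09 and -0.14) and the epithelium list (10 genes, 0.02 and -0.03) had 0 calls. The 6 ileum markers had 1 call, Cubn in Pxr-/- mice (0.59).

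**Figure D4:**
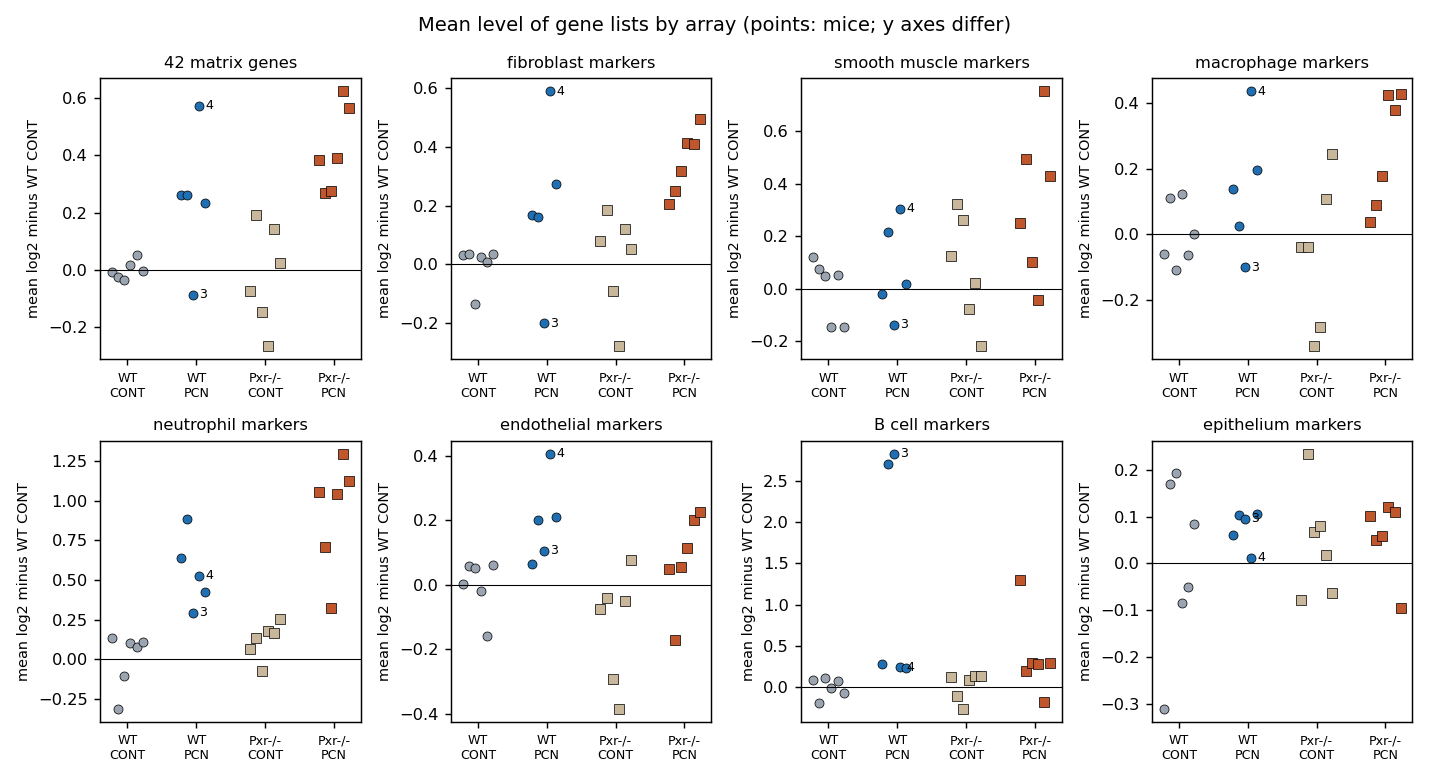
Mean log2 level of the 42 matrix genes and of 7 marker lists on each array (points), relative to the mean of WT CONT (y axes, with different scales), in the 4 groups (x axes). WT PCN replicates 3 and 4 carry their numbers. In WT PCN, 4 is the highest and 3 the lowest for the matrix genes and the fibroblast, smooth muscle and macrophage markers. For the B cell markers 3 is the highest.

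The rest of the matrix pathway was described from lists outside the 42 genes. Of 20 further metalloproteinases and inhibitors in the table, 2 were called higher in each genotype, Adamts9 (a versican-cutting protease, 1.04 in WT and 0.77 in Pxr-/- mice) and Mmp19 (0.72 and 0.94), and list medians were 0.11 and 0.28. Of 19 other basement membrane components 0 were called in WT and 1 in Pxr-/- mice, the laminin chain Lamb3 (0.90). The 6 other fibrillar collagens gave 0 calls. Of 14 other non-fibrillar collagens Col8a2 fell in WT (-0.66, adjusted p = 0.00473, limma) and differed by -0.38 in Pxr-/- mice without a call. Col6a5 rose in Pxr-/- mice (1.09, adjusted p = 0.0306, limma). Of 24 enzymes of collagen synthesis and processing Bmp1, the procollagen C-proteinase, rose in Pxr-/- mice (0.66), and 0 were called in WT (medians 0.05 and 0.16). The 17 TGF-β ligands, receptors and signal proteins, the 16 matrix receptors and the 4 PDGF ligands had 0 calls within either genotype (medians 0.09 and 0.15, 0.06 and 0.23, -0.04 and 0.12). Averaged over the genotypes, Itga5, the fibronectin receptor subunit among the matrix receptors, rose by 0.59 (adjusted p = 0.00663, limma).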

How the data were processed

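Ileal RNA of 23 mice was labelled with Cy3 and hybridised to Agilent mouse arrays, 1 array per mouse. The scanner files, which the authors deposited, hold spot intensity on a linear scale (Agilent Feature Extraction 10.10.1.1). The authors also deposited a processed table with log2 values for 37161 probes, which their methods describe as median signals that were filtered, put on the log2 scale, corrected for wash batch and normalized by CrossNorm, with neither the filter nor the CrossNorm grouping stated. All its columns held 1 set of sorted values, and their Spearman correlation with the scanner median signal of the same array was 0.9995 to 0.9997 across probes. This adjustment to 1 distribution makes all differences relative to the whole of the measured RNA, and the wash batch correction had been made before any test here. The depth of an array is not a count, and the number of arrays limits the precision.

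limma 3.58.1 (R 4.3.3) was fitted to the log2 values of all 23 arrays, the model holding a mean for each group and a term for wash batch. Moderated tests were 2-sided, adjusted by Benjamini-Hochberg over all 37161 probes of each of 6 contrasts, and a call needed a fold above 1.5 and an adjusted p no higher than 0.05. The WT and Pxr-/- contrasts share no arrays, whereas their average and their difference use all 4 groups. Tables and figures were made in Python 3.11.15 (pandas 2.3.3, numpy 2.4.6, matplotlib 3.10.9).

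A gene was represented by its probe with the highest mean over all arrays, by the gene name on the array (Ctgf also as Ccn2), with mm9 positions from the array annotation. Values by array are given for Col1a1, Col1a2, Col3a1, Col4a1, Col4a2, Col18a1, Mmp2, Mmp3, Mmp14, Timp1 and Timp3 and for each gene called in any contrast, 18 genes in all, and of each other list the up to 3 genes with the largest change among those called with PCN. The genes and lists were chosen with earlier results of these data known. Groups were taken from the labels, as were wash batches, and nothing states whether the mice of a group shared cages. Alternatives covered the starting signal, background correction, scaling, filter, probe choice, wash batch, slide, replicate number, fold threshold, variance prior and each array left out.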

Additional observations from a re-analysis of the deposited data

Results flagged for a closer look

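Of 72 groups of arrays (18 genes in 4 groups) 2 held a value far from the rest by Dixon's criterion, which chance meets in about 1 group in 20. Timp3 was at 10.83 in Pxr-/- CONT replicate 4, with the nearest array of that group at 11.31 and the highest at 11.44. Lox was at 6.21 in WT PCN replicate 3, with the nearest at 7.11 and the highest at 7.47. Both arrays were also the ones that were lowest of their groups most often among the 42 genes (25 in Pxr-/- CONT replicate 4 and 32 in WT PCN replicate 3).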

How the results depend on the processing

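The 42 genes kept a median PCN difference above 0 under all settings, 0.12 to 0.27 in WT, 0.34 to 0.43 in Pxr-/- mice and 0.25 to 0.33 on average. No called difference changed sign, which is not an independent check, as all settings drew on the same arrays. In WT the 5 calls fell to 2 with slide as a fixed block, to 3 when only the groups compared were fitted, and to 3 with WT PCN replicates 3 and 4 left out (added after seeing the data). They ranged from 0 (without WT PCN replicate 2) to 6 (without WT PCN replicate 3) when single arrays were left out. In Pxr-/- mice 10 became 17 and on average 7 became 22 without the fold threshold. Within wash batch 1 alone 0 genes were called in WT, in Pxr-/- mice and on average, and within batch 2 alone 0 in WT and 6 in Pxr-/- mice. Single arrays left out gave 7 to 11 calls in Pxr-/- mice and 7 to 9 on average. The comparison of genotypes with PCN gave 0 to 1, the 1 being Ogn without WT PCN replicate 4. Scanner signals, quantile or median scaling and normexp left the counts at 4 to 5 in WT, 9 to 10 in Pxr-/- mice and 7 on average. The fits within a batch have fewer arrays by construction, and for the other settings the cause was not tested.

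By correlation of deviations, same-numbered mice of different groups were not more alike than mice with different numbers. The correlation was above 0.1 in 6 of 33 same-numbered pairs (median -0.04) and in 37 of 165 different-numbered pairs (median -0.003). 7 of 23 arrays correlated best with their own number, a count for which no chance level was computed. With the replicate block, 3 genes were called in WT, 9 in Pxr-/- mice and 8 on average. The dim probes of Cthrc1 and Fmod were not above background on every array.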
